A study of Mus musculus with 6 samples.

Results

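Of the genes measured on the 6 arrays, 10 encode transporters, adhesion proteins and enzymes known from the barrier layer of the arachnoid, the middle membrane around the brain: Slc6a13, Slc6a20a, Slc22a6, Slc22a8, Slc13a4, Slc47a1, Mpzl2, Cdh1, Dpp4 and Aldh1a2. They were chosen by gene symbol, out of 17072 genes with a probeset of their own, in a list drawn up with earlier results of the same comparison known. Counts over the 10 genes are therefore descriptions and show nothing about arachnoid genes as a class. The probeset of a gene was to be selected on the highest mean signal, but each of the 10 had only 1 probeset, so that this choice never arose. The arrays hold hypothalamic RNA of female C57Bl/6J mice killed at 21 weeks of age. In the CGP group (3 arrays) the mothers had received the competitive NMDA receptor antagonist CGP 39551 orally at 5 mg/kg during pregnancy and up to weaning, and the control group (CON, 3 arrays) consists of control mice of the same age. Each group was made from the RNA of 18 mice, and no source used here says that its 3 arrays came from separate pools. For male arrays the published methods describe RNA pooled over all 18 mice of a group and run in triplicate. The tests thus see nothing but array-to-array spread, perhaps technical, and any difference between the pools cannot be told apart from an effect of CGP.

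The arachnoid barrier cells form a thin epithelium-like sheet between the dura and the cerebrospinal fluid. They are joined by tight and adherens junctions, with E-cadherin as a classical marker, and carry solute carriers that move drugs, metabolites and neurotransmitters between fluid and blood. Several of these carriers are also known from the choroid plexus or from the kidney tubule. None of the 10 genes is taken here to mark the arachnoid alone. The sheet belongs to the membranes around the brain and is not part of the hypothalamus proper.

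All signals are log2 values, on which a difference of 1 is a doubling, and differences are CGP minus CON. Genes of the labelled tissue were high: Hcrt, the orexin gene of lateral hypothalamic neurons, lay between 12.45 and 12.56 on every array and Oxt, the oxytocin gene, between 12.08 and 12.23. Of 11 tested hypothalamic identity genes none passed in limma, but 8 lay below 0, 4 of these with the groups apart, and 3 had an unadjusted p under 0.05, all lower in CGP: Cartpt (-0.24), Nkx2-1 (-0.14) and Sim1 (-0.11). The median of that list was -0.032, and the part of this shift in the values of the 10 genes was not tested. The labels speak of adrenal glands in 1 passage, but the adrenal steroid enzyme gene Cyp11a1 lay between 5.88 and 6.16, around the filter of 6 below which mean signals were left out. Among 6 tested adrenal genes none passed, and the largest difference was 0.12, that of the cholesterol carrier gene Star (limma, adjusted p = 0.374). The arrays correlated at 0.997 to 0.998 within the groups and at 0.996 to 0.998 between them. On the first principal component (35.0% of the variance) CGP replicate 1 lay at -0.90, close to CON replicate 3 at -0.74. CGP replicates 2 and 3 lay at 8.05 and 6.40 there, and CON replicates 1 and 2 at -4.06 and -8.75. CGP replicate 1 stood apart on the second principal component (21.7% of the variance), at 9.67 against -4.78 to 0.013 on the other arrays.

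Every one of the 10 genes passed the filter and had a lower mean in CGP than in CON. The adhesion gene Mpzl2, the imino acid transporter gene Slc6a20a and the retinoic acid enzyme gene Aldh1a2 fell, with an adjusted p under 0.05 in limma and differences of -0.38, -0.32 and -0.27. None of the 10 rose, and 7 did not pass the test. Without CGP replicate 1 or CGP replicate 2 only Mpzl2 of the 10 passed, and without CGP replicate 3 or any CON array none did. Before adjustment 8 of the 10, all lower in CGP, had a p under 0.05, as had 11.1% of all tested probesets. Over all 18239 tested probesets 0.126% fell and 0.154% rose by the same rule. The differences of the 10 genes had a median of -0.23 and ran from -0.41 to -0.11, against a median of -0.0031 over all tested probesets, of which 52.1% lay below 0. All of them were under the 1.4-fold change that the methods for the male arrays asked of a differentially expressed gene. For 8 of the genes every CGP array lay below every CON array, and for Cdh1 and Dpp4 the groups overlapped. Of all tested probesets, 9.95% had CGP wholly below CON and 7.59% wholly above. In such bulk tissue, fewer cells of a type and less RNA per cell cannot be told apart.

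**Figure D1:**
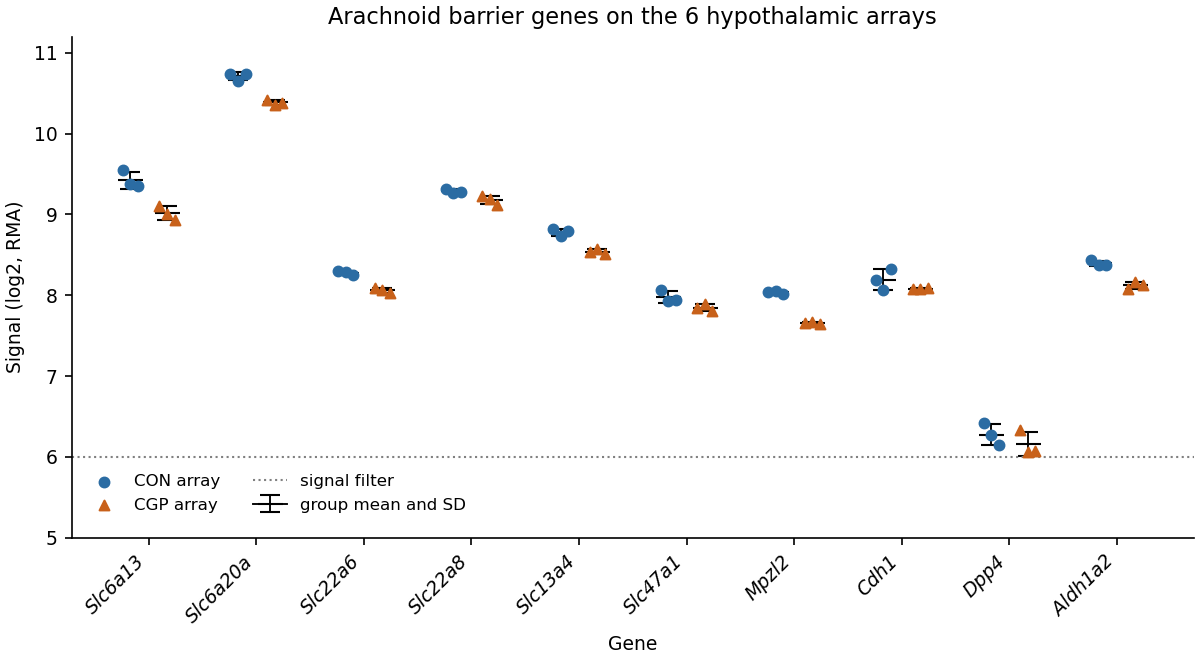
Log2 RMA signal of the 10 genes (horizontal axis) on the 3 CON arrays (circles) and the 3 CGP arrays (triangles), with the mean and SD of each group; the dotted line is the filter at 6. The groups lie apart for all genes but Cdh1 and Dpp4, and Dpp4 lies closest to the filter, with means of 6.28 in CON and 6.16 in CGP.

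Slc6a13 encodes a sodium-coupled transporter of GABA and taurine (GAT2) that is found mainly at the meninges and outside the brain. Its signals were 9.55, 9.37 and 9.36 in CON and 9.11, 9.01 and 8.93 in CGP. The lowest CON array lay 0.25 above the highest CGP array. With -0.41 (standard error 0.065) it had the largest difference of the 10 genes, yet it did not pass (adjusted p = 0.0597 from limma). Its arrays had SDs of 0.11 in CON and 0.090 in CGP. Slc6a20a encodes SIT1, a transporter of proline and other imino acids. Its signals were 10.74, 10.65 and 10.74 in CON and 10.42, 10.36 and 10.38 in CGP. The groups were parted by 0.23 at the nearest arrays, and the gene fell by 0.32 (standard error 0.040, adjusted p = 0.0253 from limma), a 1.25-fold change. With any 1 of the arrays left out its adjusted p lay between 0.0624 and 0.144.

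The organic anion transporters OAT1 and OAT3 take up drugs, hormone conjugates and neurotransmitter metabolites and are encoded by Slc22a6 and Slc22a8, which stand next to each other on chromosome 19 with 1 non-coding gene between them in RefSeq. Slc22a6 gave 8.30, 8.29 and 8.25 in CON and 8.09, 8.06 and 8.02 in CGP. Slc22a8 gave 9.31, 9.27 and 9.28 in CON and 9.23, 9.19 and 9.12 in CGP. Both had all CGP arrays below all CON arrays, Slc22a6 by at least 0.16 and Slc22a8 by as little as 0.041. The difference was -0.22 for Slc22a6 (standard error 0.036, adjusted p = 0.0696 from limma) and -0.11 for Slc22a8 (standard error 0.040, adjusted p = 0.411), and neither passed. The 95% confidence intervals of -0.30 to -0.14 and -0.20 to -0.015 overlapped, and whether the neighbours differed from each other was not tested.

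Slc13a4 encodes a sodium-coupled sulfate transporter that is also known from the choroid plexus. Its signals were 8.82, 8.73 and 8.79 in CON and 8.54, 8.57 and 8.51 in CGP, which puts CGP at -0.24 ± 0.039 (standard error) from CON. The groups lay 0.16 apart, but the gene missed the threshold (limma, adjusted p = 0.0608). Slc47a1 encodes MATE1, which extrudes organic cations in exchange for protons. Its signals were 8.07, 7.93 and 7.95 in CON and 7.84, 7.89 and 7.81 in CGP, which puts CGP at -0.14 ± 0.048 (standard error) from CON (limma, adjusted p = 0.389). Its groups were parted by only 0.041, less than the SD of 0.075 among the CON arrays.

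Mpzl2, also called EVA1, encodes an immunoglobulin-like protein by which epithelial cells adhere to each other. Its signals were 8.04, 8.06 and 8.02 in CON and 7.66, 7.67 and 7.64 in CGP. The arrays of each group were close together, with SDs of 0.020 and 0.012, and the groups were 0.35 apart. Mpzl2 fell by 0.38 (standard error 0.034), a 1.30-fold change, and its adjusted p of 0.00737 from limma was the smallest of the 10. Its adjusted p was 0.0380 without CGP replicate 1 and 0.0463 without CGP replicate 2, and 0.0503 to 0.0741 with any other array left out.

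Cdh1 encodes E-cadherin, the calcium-dependent adhesion protein of epithelial adherens junctions. Its signals were 8.19, 8.06 and 8.32 in CON and 8.07, 8.07 and 8.09 in CGP. The CGP arrays were nearly equal, and CON replicate 2 lay below all of them. The difference was -0.11 ± 0.063 (standard error; limma, adjusted p = 0.552), with a 95% interval of -0.26 to 0.031. Leaving out CON replicate 2 moved it to -0.18, and leaving out CON replicate 3 to -0.047. Dpp4 encodes dipeptidyl peptidase 4, a peptidase on the cell surface that is used as a marker of arachnoid barrier cells. Its signals were 6.41, 6.27 and 6.15 in CON and 6.33, 6.06 and 6.08 in CGP, and CGP replicate 1 lay above 2 of the CON arrays. The difference was -0.12 ± 0.089 (standard error; limma, adjusted p = 0.657), with a 95% interval of -0.32 to 0.087. It moved to -0.049 without CON replicate 1, -0.18 without CON replicate 3, -0.21 without CGP replicate 1, -0.070 without CGP replicate 2 and -0.077 without CGP replicate 3. Its mean stood at the percentile 5.60 of all single-gene probesets.

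Aldh1a2 encodes retinaldehyde dehydrogenase 2, which makes retinoic acid and is known from the meninges of the developing brain. Its signals were 8.43, 8.37 and 8.38 in CON and 8.08, 8.17 and 8.12 in CGP, with 0.20 between the nearest arrays. It fell by 0.27 (standard error 0.039), with an adjusted p of 0.0482 from limma, just inside the threshold, whereas Slc6a13 lay just outside it. With 1 array left out its adjusted p was between 0.114 and 0.226.

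**Figure D2:**
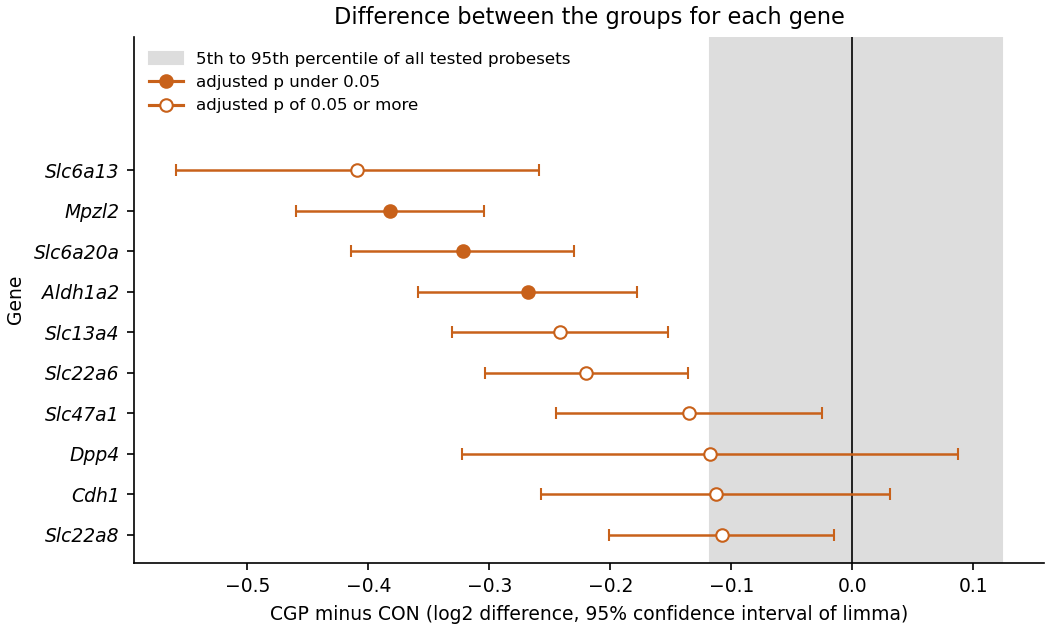
Difference between CGP and CON (log2, horizontal axis) for each of the 10 genes, with the 95% confidence interval from limma; filled points passed an adjusted p of 0.05, and the grey band holds the central differences of all tested probesets, from the percentile 5 at -0.12 to the percentile 95 at 0.12. The intervals of Cdh1 and Dpp4 include 0, and the 6 genes from Slc6a13 to Slc22a6 have intervals that end below the grey band.

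The windows of 250 bases before the transcript start show how unlike the starts of these genes are. RefSeq windows were found for 7 of the 10 genes, 9 windows in all since Slc6a13 has 3, and not for Cdh1, Mpzl2 and Slc47a1. Printed here, from 5′ to 3′ on the gene's strand in GRCm38.p6, are the windows of Slc6a20a and Aldh1a2, the genes with a window that fell, and of the neighbours Slc22a6 and Slc22a8. Capitals mark 5 motifs searched on both strands: TATAAA (the TATA box), then CCAAT (the CCAAT box), then GGGCGG (the GC box), then TGTTTAC (a forkhead core), then GTTAAT (a core of the HNF1 motif). In Slc22a6 the CCAAT box is met on both strands at overlapping letters.
Slc6a20a (chr9:123678833-123679082, minus strand): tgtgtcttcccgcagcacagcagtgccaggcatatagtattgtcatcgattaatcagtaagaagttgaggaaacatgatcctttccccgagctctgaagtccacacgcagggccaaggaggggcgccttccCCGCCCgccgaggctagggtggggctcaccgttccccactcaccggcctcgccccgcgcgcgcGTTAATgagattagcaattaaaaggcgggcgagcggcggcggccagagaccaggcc
Aldh1a2 (chr9:71215539-71215788, plus strand): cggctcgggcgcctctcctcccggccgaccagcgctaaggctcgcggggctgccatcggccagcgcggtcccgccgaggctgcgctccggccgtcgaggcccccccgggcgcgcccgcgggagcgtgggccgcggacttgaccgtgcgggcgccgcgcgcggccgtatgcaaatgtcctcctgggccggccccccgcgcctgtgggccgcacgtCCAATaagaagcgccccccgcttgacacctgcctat
Slc22a6 (chr19:8617746-8617995, plus strand): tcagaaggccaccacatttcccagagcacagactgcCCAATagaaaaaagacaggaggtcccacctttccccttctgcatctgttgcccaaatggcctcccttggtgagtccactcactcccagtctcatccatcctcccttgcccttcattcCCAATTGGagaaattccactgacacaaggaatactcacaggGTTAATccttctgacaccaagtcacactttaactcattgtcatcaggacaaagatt
Slc22a8 (chr19:8592932-8593181, plus strand): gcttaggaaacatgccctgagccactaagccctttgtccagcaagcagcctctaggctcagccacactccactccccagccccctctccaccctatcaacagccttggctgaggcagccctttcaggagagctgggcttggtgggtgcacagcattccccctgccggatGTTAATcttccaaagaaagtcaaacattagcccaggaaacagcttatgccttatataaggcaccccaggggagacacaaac

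The window of Aldh1a2 held 40 CpG dinucleotides and was 77.6% G or C, and that of Slc6a20a held 21, while Slc22a8 held 1 and Slc22a6 0. The median over all 32851 windows was 6. GTTAAT was found in 4 of the 9 windows, those of Slc6a20a, Slc22a6 and Slc22a8 and 1 of Slc6a13, and in 6.43% of all windows. CCAAT was found in 4 windows, among them those of Aldh1a2 and Slc22a6, and in 33.8% of all windows. GGGCGG was found in 3 (32.7% of all windows), TATAAA in 1, that of Dpp4 (12.4%), and TGTTTAC in 0 (3.17%). A match is a run of letters and not a site shown to be bound.

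The 10 genes were compared with each other over the arrays. Each was centred on its own mean, and the mean of the 10 was 0.17, 0.080 and 0.10 on the CON arrays and -0.083, -0.12 and -0.15 on the CGP arrays. CON replicate 1 was the highest CON array for 8 of the genes, and CGP replicate 3 was the lowest CGP array for 6. Over the 45 pairs of genes, Pearson's r across the 6 arrays had a median of 0.87, a value that includes the difference between the groups. With the group means taken off, the median r was 0.34, and 36 of the 45 pairs had an r above 0. The points of these correlations are 6 arrays in 2 groups, and the values are a description. Cdh1 and Dpp4 followed the others least, with median r of 0.53 and 0.52 with the other members, while Slc13a4, Slc22a6 and Slc6a20a had the highest, at 0.95.

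**Figure D3:**
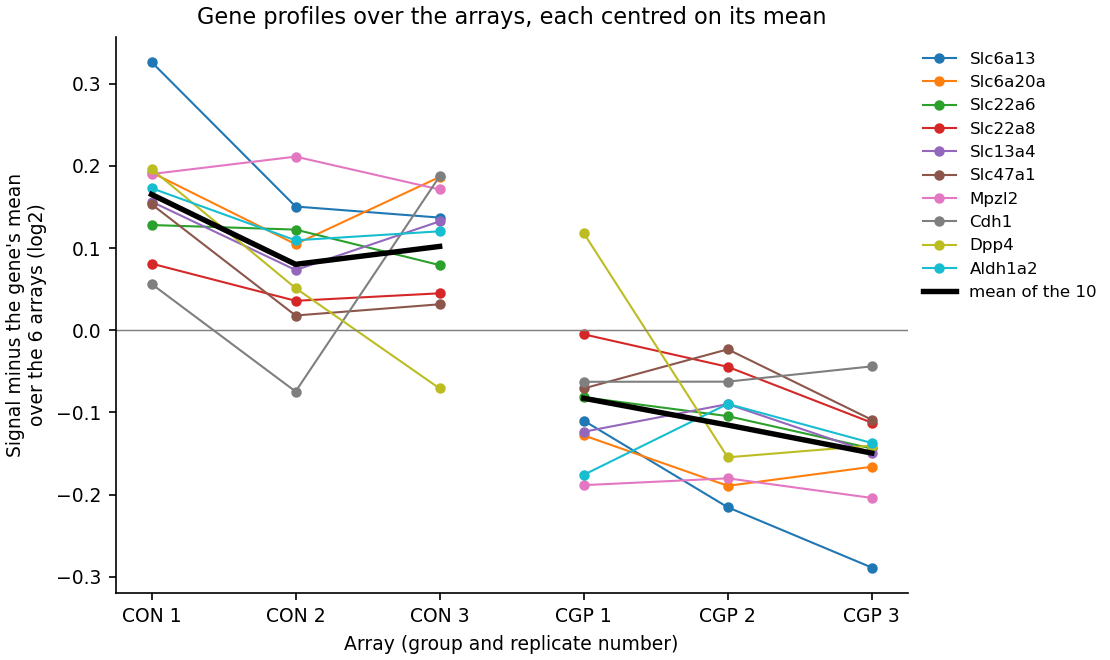
Signal of each of the 10 genes on the 6 arrays (horizontal axis) after its own mean was taken off (log2, vertical axis), with the mean of the 10 in black; lines only join the points of a gene, since replicates have no order. The mean profile runs from 0.080 to 0.17 in CON and from -0.15 to -0.083 in CGP, and only Dpp4 and Cdh1 have points of the groups that overlap.

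Other genes of the barrier were read from lists of their own. Of 17 further genes of barrier junctions and epithelial structure, 16 were tested and none rose or fell in limma (4 had an unadjusted p under 0.05). Their median difference was -0.027, and 8 lay on each side of 0. CGP lay wholly below CON for 5 of the 16 and wholly above for 2, against 9.95% and 7.59% of all tested probesets. The largest difference was -0.17, that of Gjb2, which encodes the gap junction protein connexin 26 (limma, adjusted p = 0.159). Cldn11, the claudin gene of arachnoid and myelin tight junctions, differed by -0.067 (adjusted p = 0.548 from limma). Of 15 efflux pumps and solute carriers of brain barriers none rose or fell (4 with an unadjusted p under 0.05, median -0.023). Among them Abcg2, the pump BCRP that is also placed on arachnoid barrier cells, was at 7.96, 7.87 and 7.84 in CON and 7.86, 7.86 and 7.83 in CGP, a difference of -0.041 (adjusted p = 0.755 from limma). The largest difference there was 0.13, that of the nucleoside transporter gene Slc29a1 (adjusted p = 0.343 from limma).

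The nearest relatives of the transporters had a median difference of 0.017, and of 20 genes 16 were tested and none passed, 3 having an unadjusted p under 0.05. The largest difference among them was that of Slc6a12, the betaine and GABA transporter BGT1, which is a close relative of Slc6a13 and is likewise known from the meninges. Slc6a12 was at 8.93 on all 3 CON arrays and at 8.69, 8.75 and 8.57 in CGP, so that it differed by -0.26 ± 0.050 (standard error; limma, adjusted p = 0.116). Slc6a11, the GABA transporter of astrocytes, differed by 0.046, and Slc6a20b, the gene most similar to Slc6a20a, by 0.079. The kidney marker list, tested since the kidney tubule uses several of the 10 carriers, had a median of -0.021 over 6 tested genes, none of which passed (1 before adjustment, largest difference -0.10, that of Cubn). Of 15 relatives of Cdh1, Mpzl2 and Dpp4, 13 were tested and none passed, before adjustment either (median -0.0020). The largest difference was -0.076, that of the endothelial cadherin gene Cdh5.

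Of 18 genes for making, carrying, breaking down or sensing retinoic acid, Aldh1a2 left out, 16 were tested and none rose or fell, 3 having an unadjusted p under 0.05, with a median of -0.015. The largest difference was -0.26, that of Rbp4, the plasma carrier of retinol, which was at 8.82, 8.91 and 8.84 in CON and 8.68, 8.60 and 8.50 in CGP (standard error 0.053, adjusted p = 0.138 from limma). Aldh1a1, which makes retinoic acid too, differed by -0.23 (adjusted p = 0.0732 from limma), and Crabp2, a retinoic acid binding protein, by -0.20 (adjusted p = 0.245). The groups lay apart for these 3 genes. The receptor genes Rara, Rarb and Rarg differed by -0.072, 0.016 and 0.014.

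Markers of neighbouring cell types are set beside the 10 genes. Of 20 genes of pial and arachnoid fibroblasts, 3 fell and none rose: Ogn (-0.44) and Fmod (-0.36), both small proteoglycans of connective tissue, and the growth factor gene Igf2 (-0.25). Without CGP replicate 1 only Ogn passed, and 0 of the 20 passed with any other array left out or with the replicate block. Before adjustment 13 of the 20 had a p under 0.05 in limma, in either direction. Of the 20, 16 lay below 0, 13 had CGP wholly below CON and 1 wholly above. The list had a median of -0.11. Its mean signal was 8.88 to 8.90 on the CON arrays and 8.74 to 8.78 on the CGP arrays. The collagen genes Col1a1 and Col1a2 differed by -0.014 and 0.0040. Of 10 genes of dura and dural border, 9 were tested and 1 fell, the lubricin gene Prg4 (-0.57), which missed the threshold without CON replicate 1 or CON replicate 2 (adjusted p = 0.0527 and 0.0535 from limma). Before adjustment 6 of these 9 had a p under 0.05 in limma, in either direction. CGP lay wholly below CON for 5 of them and wholly above for 2, and the median was -0.12. The mesothelial marker Msln was at 6.61 to 6.82 and differed by -0.018. Among 9 olfactory mucosa genes, 8 were tested and 4 fell, Scgb1c1 (-1.65), Cyp2g1 (-0.85), S100a5 (-0.58) and Stoml3 (-0.36). The list mean was 7.64 to 7.73 in CON and 7.18 to 7.24 in CGP, and the median difference was -0.25. All 8 lay below 0, 6 of them with CGP wholly below CON, and 5 had an unadjusted p under 0.05 in limma. Scgb1c1 and Cyp2g1 passed the filter of 6 through their CON arrays, since their CGP means were 5.81 and 5.95. The list mean, the median and the counts over the 8 genes include both. The 4 genes of the list that did not pass lay between -0.14 and -0.053. With every array required to reach 6, neither Scgb1c1 nor Cyp2g1 was tested, and 2 of 6 genes fell (S100a5 and Stoml3). Without CON replicate 1 and with the replicate block only Scgb1c1 of the 4 passed. Without CGP replicate 2 all but S100a5 did, and without each of the other arrays Scgb1c1 and Cyp2g1 did. Cdh1 is known from such epithelia as well. The part of fibroblasts, dura or olfactory tissue in the values of the 10 genes was not tested.

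Choroid plexus genes, among which Slc13a4 and Slc22a8 are sometimes counted, were higher in CGP for 12 of 13. For 9 of the 13 the unadjusted p was under 0.05 in limma, and for 9 CGP lay wholly above CON. Of 15, 13 were tested, 2 rose and none fell, Ttr, the thyroxine carrier transthyretin, by 0.84 and the bicarbonate transporter gene Slc4a5 by 0.40, and the mean of the list was 7.92 to 7.95 in CON and 8.12 to 8.18 in CGP. Only Ttr passed with any 1 array left out or with the replicate block, and Slc4a5 then had an adjusted p of 0.0590 to 0.134 with an array left out and 0.0843 with the block in limma. Of 10 anterior pituitary genes, 8 were tested, and Pomc, Lhb and Gh rose by 1.56, 0.46 and 0.39, the list mean being 9.90 to 9.95 in CON and 10.30 to 10.31 in CGP. Before adjustment 6 of these 8 had a p under 0.05 in limma, and 5 had CGP wholly above CON. Only Pomc passed with any 1 array left out or with the replicate block. Brain endothelium genes had a median of -0.059, with none of 9 past the test (1 before adjustment) and -0.10 for Cldn5, the claudin of the blood-brain barrier. Border macrophage and T cell genes, tested since T cells carry Dpp4, had a median of 0.041 with none of 8 past the test before or after adjustment, and the T cell receptor subunit gene Cd3e differed by 0.10. The part of choroid plexus or pituitary tissue in the values of the 10 genes was not tested either.

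**Figure D4:**
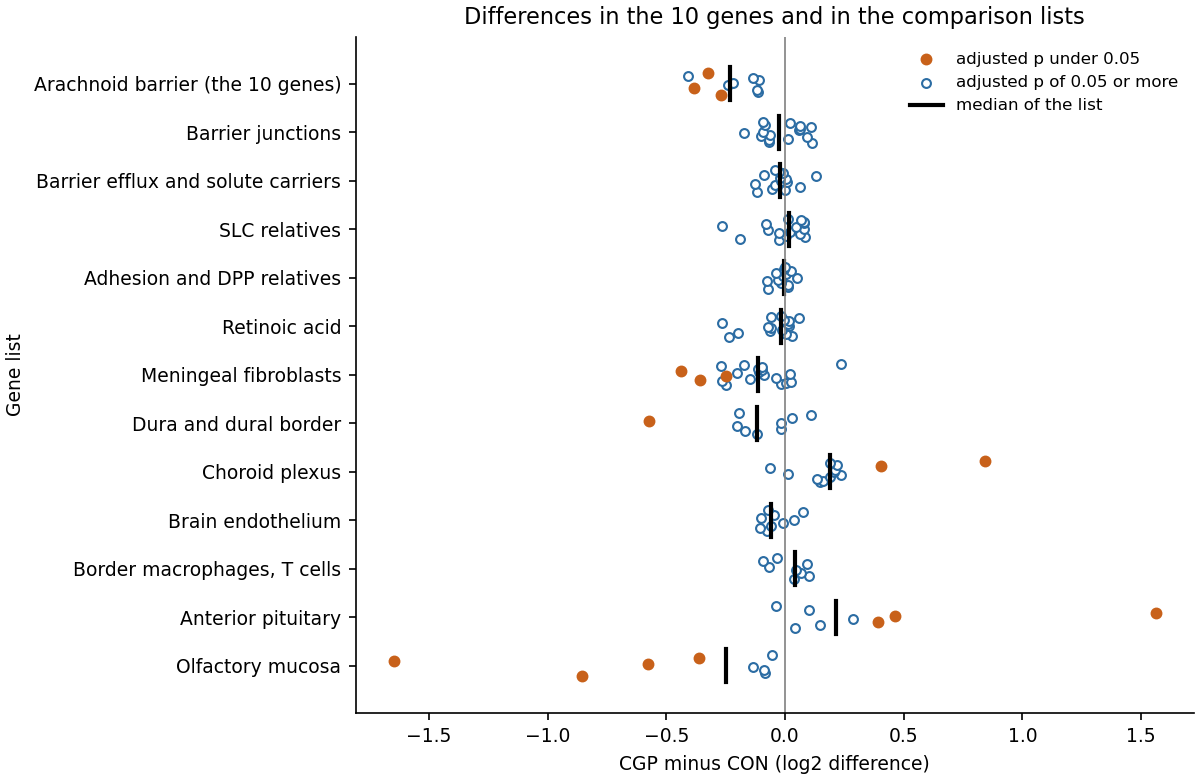
Difference between CGP and CON (log2, horizontal axis) of each tested gene in the 10 arachnoid barrier genes and in 12 comparison lists (rows); filled points passed an adjusted p of 0.05, and black bars are medians. The bar of the 10 genes lies at -0.23, and those of dura and meningeal fibroblasts at -0.12 and -0.11. That of olfactory mucosa lies at -0.25 and includes Scgb1c1 and Cyp2g1, which passed the filter through their CON arrays. Those of barrier junctions, efflux carriers and relatives lie between -0.027 and 0.017, and that of choroid plexus at 0.19.

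The genes whose profile over the 6 arrays was most like the mean of the 10 were sought among 1591 tested genes with a range of at least 0.3. Emp3, which encodes epithelial membrane protein 3, came first with a Pearson r of 0.994. Its signals were 8.80, 8.71 and 8.71 in CON and 8.39, 8.39 and 8.31 in CGP, and it fell by 0.38 (adjusted p = 0.0234 from limma). Cartpt, the gene of the CART peptide of hypothalamic neurons, followed with an r of 0.989 and a difference of -0.24 (adjusted p = 0.0696 from limma). The guidance gene Sema3d had an r of 0.987 and a difference of -0.22 (adjusted p = 0.172 from limma). Acta2, the smooth muscle actin gene, had an r of 0.985 and fell by 0.35 (adjusted p = 0.0249 from limma), and Th, the tyrosine hydroxylase gene of dopamine neurons, had an r of 0.982 and a difference of -0.25 (adjusted p = 0.0576 from limma). With any 1 array left out neither Emp3 nor Acta2 passed (adjusted p of 0.0632 to 0.107 and 0.0632 to 0.132 from limma), nor did they with the replicate block. These r values rest on 6 arrays in 2 groups and include the difference between the groups, which was -0.23 in the mean profile. Genes with CGP wholly below CON, as all those named here, thus reach a high r through that difference.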

How the data were processed

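The values are from Affymetrix Mouse Gene 1.0 ST arrays of female hypothalamic RNA, 3 CON and 3 CGP. The authors deposited log2 values for 28471 probesets. Per the labels they were made with RMA and Partek, and the methods describe background correction, quantile normalization and median polish for the male arrays. The sources used here name no probeset build. Depth does not apply to arrays, and their number limits the precision.

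Gene names came from GEO's annotation of the platform, which gave 1 gene for 18690, several for 1163 and none for 8618. Of these 18690, 18620 matched RefSeq (GRCm38.p6) by Entrez identifier. Single-gene probesets with a mean of at least 6 over the 6 arrays (18239, for 16663 genes) were fitted with limma 3.58.1 in R 4.3.3 (lmFit, eBayes, no covariate), with Benjamini-Hochberg adjustment over all of them. A gene rose or fell when its adjusted p was under 0.05. The steps were tested on simulated data. Promoter windows came from RefSeq, and their motifs were chosen after the array values had been seen.

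The 10 genes and the comparison lists were chosen with earlier results of these data known. Named are every member, of each list up to 4 genes that passed, or otherwise the gene with the largest difference, and the 5 genes with the most similar profile. Other genes of a list (Cldn11, Abcg2, Slc6a11, Slc6a20b, Aldh1a1, Crabp2, the Rar genes, Col1a1, Col1a2, Msln, Hcrt, Oxt, Nkx2-1, Sim1 and Cyp11a1) were named after their values were seen. Alternatives changed the filter, probesets, normalization, variance model, pairing and arrays used.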

Additional observations from a re-analysis of the deposited data

How the results depend on the processing

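All 10 genes kept a difference below 0 in each of 16 refits, and the count of genes that rose stayed at 0. The 3 that fell became 0 when 1.4-fold was asked too, 0 with all probesets tested and 1 with ordinary ANOVA (Mpzl2). They became 6 with a trended and robust eBayes and 5 with array weights. The calls over all probesets moved too: 23 fell in the main fit, 136 with that eBayes and 38 with array weights. Ordinary ANOVA left 2, the 1.4-fold rule 6 and the test of all probesets 2. With 1 array left out the count was 0 to 1, while 3 to 8 of all tested probesets fell. It was 1 without CGP replicate 1 or CGP replicate 2 (Mpzl2 in both) and 0 without CGP replicate 3 or any CON array. Mpzl2 passed in 10 of the 16 refits, Slc6a20a in 7 and Aldh1a2 in 5, and Slc6a13 in 3, Slc13a4 in 2 and Slc22a6 in 1. The causes were not tested. Over the 10 genes 26 of 160 refitted values lost a call and 6 gained one, and over the 27 other genes named by rule 101 of 430 lost and 7 gained one, with no change of sign. No pairing by replicate number was seen: deviations of like-numbered arrays had r of 0.078, -0.18 and 0.11, and 1 CON array of 3 was closest to its own number. With 3 arrays per group this check is weak, and whether like-numbered arrays shared a batch was not tested. Under a replicate block, 0 of the 10 genes passed, and 2 probesets rose and 4 fell in all, against 28 and 23. There is no detection p in the values used, so that how far Dpp4, with a mean near 6, stood above background was not tested.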
